A study of Mus musculus with 8 samples.

Results

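The genes described here encode the plasminogen activators, their receptor and their inhibitors: Plau, Plaur, Plat, Serpine2 and Serpinb2. They were taken from the array by symbol. For each gene the probe set annotated with that symbol alone was used and, had there been several, the one with the highest mean over all 8 arrays would have stood for it. Of the 5 genes, 4 had such a probe set, 1 each, among 19938 genes tested. Serpine2, which encodes protease nexin-1, an inhibitor of urokinase and thrombin, had none in the annotation used and was not analysed here.

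The samples were RNA of cultured 3134 cells, which descend from the C127 mammary tumour line of the RIII mouse, hybridised to 1 oligonucleotide array each. All of them carried stably integrated A-fos, a dominant negative that blocks DNA binding by AP-1 (dimers of Fos and Jun proteins), together with the transactivator tTA, which drives A-fos when tetracycline is absent (Tet-Off). All had spent 48 h in charcoal-stripped serum. The 4 groups, with 2 arrays each, were cells titled plus tetracycline at 4 h of 100 nM dexamethasone, cells titled plus tetracycline at 0 h without hormone, cells titled no tetracycline at 4 h of 100 nM dexamethasone, and cells titled no tetracycline at 0 h without hormone. Dexamethasone is a synthetic glucocorticoid, and the question was how far its effects on genes need bound AP-1. No group was kept for 4 h without hormone, so the effect of dexamethasone cannot be told apart from that of the elapsed time. Falls and rises with hormone below mean 4 h of dexamethasone against 0 h. Titles and treatment protocols give opposite tetracycline states (1 ug per ml) for every sample, so the arms are called plus-titled and no-titled here, and the labels leave unclear in which of them A-fos was on.

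Plasminogen is cut to plasmin, a broad protease, by 2 activators. Urokinase, the product of Plau, acts mostly at the cell surface, where it is held by its receptor, the product of Plaur; tissue-type activator, the product of Plat, acts best on fibrin. Serpins such as those of Serpine2 and Serpinb2 trap the activators. In mammary and other tissues the system is known for matrix breakdown during remodelling and invasion, Plau and Plaur are textbook target genes of AP-1, and glucocorticoids have long been known to lower plasminogen activator activity in cultured cells.

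Values are log2 expression as the authors deposited it, so a difference of 1 is a 2-fold change. A difference was called at a Benjamini-Hochberg adjusted p under 0.05 in a limma model of all 19938 genes and all 8 arrays. Array medians lay between 5.44 and 5.47, except for 5.36 on replicate 1 of the untreated plus-titled group. In that group 24 genes lay more than 2-fold apart between the replicates, against 4 to 11 in the other groups. Replicates correlated at 0.9932 to 0.9956 across genes. A gene that the glucocorticoid receptor induces rose in both arms. Fkbp5, a co-chaperone gene induced by the receptor, stood at 11.5 and 11.6 at 4 h against 8.33 and 8.06 at 0 h in the plus-titled arm, and at 11.5 and 11.5 at 4 h against 8.45 and 8.46 at 0 h in the no-titled arm. No probe set is known here to read the A-fos transgene alone, so its expression was not checked.

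Plau, the urokinase gene, was lower at 4 h of dexamethasone than at 0 h in both arms. In the plus-titled arm its level was 5.99 and 5.85 at 4 h, against 7.64 and 7.34 at 0 h. In the no-titled arm it was 6.14 and 5.96 at 4 h, against 7.81 and 7.70 at 0 h. All 4 treated arrays lay more than 1 log2 unit below all 4 untreated arrays. The change was -1.57 ± 0.13 in the plus-titled arm (log2, SE; 2.98-fold lower; 95% interval -1.87 to -1.28; adjusted p = 0.000164) and -1.70 ± 0.13 in the no-titled arm (3.25-fold lower; 95% interval -1.99 to -1.41; adjusted p = 5.92e-05). In each arm this was the most negative change of the 19938 genes in the model of all 8 arrays. In bulk RNA, fewer cells that make a transcript and less of it per cell cannot be told apart.

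Plaur, the urokinase receptor gene, also fell in both arms. In the plus-titled arm its level was 6.29 and 6.10 at 4 h, against 7.14 and 6.91 at 0 h. In the no-titled arm it was 6.56 and 6.52 at 4 h, against 7.88 and 7.60 at 0 h. In each arm both treated arrays were below both untreated ones. The change was -0.82 ± 0.13 in the plus-titled arm (SE; 1.77-fold lower; adjusted p = 0.0145), the 23rd most negative of all genes. It was -1.20 ± 0.13 in the no-titled arm (2.29-fold lower; adjusted p = 0.000847), the 6th most negative. The call in the plus-titled arm was not kept in 2 of the 8 fits without 1 array: the value was -0.73 when treated replicate 2 was left out (adjusted p = 0.158) and -0.71 when untreated replicate 1 was (adjusted p = 0.137).

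Thus 2 of the 4 measured members fell with hormone in each arm, the same pair of genes, and 0 rose. Over all genes, 0.281% were called lower and 0.823% higher in the plus-titled arm, and 0.401% lower and 1.03% higher in the no-titled arm. The median change of the 4 members was -0.53 in the plus-titled arm, where the median of all genes was -0.01, and -0.75 in the no-titled arm, where it was 0.01. Since Plau and Plaur were named with these changes already known, the counts describe them and do not test the group.

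**Figure D1:**
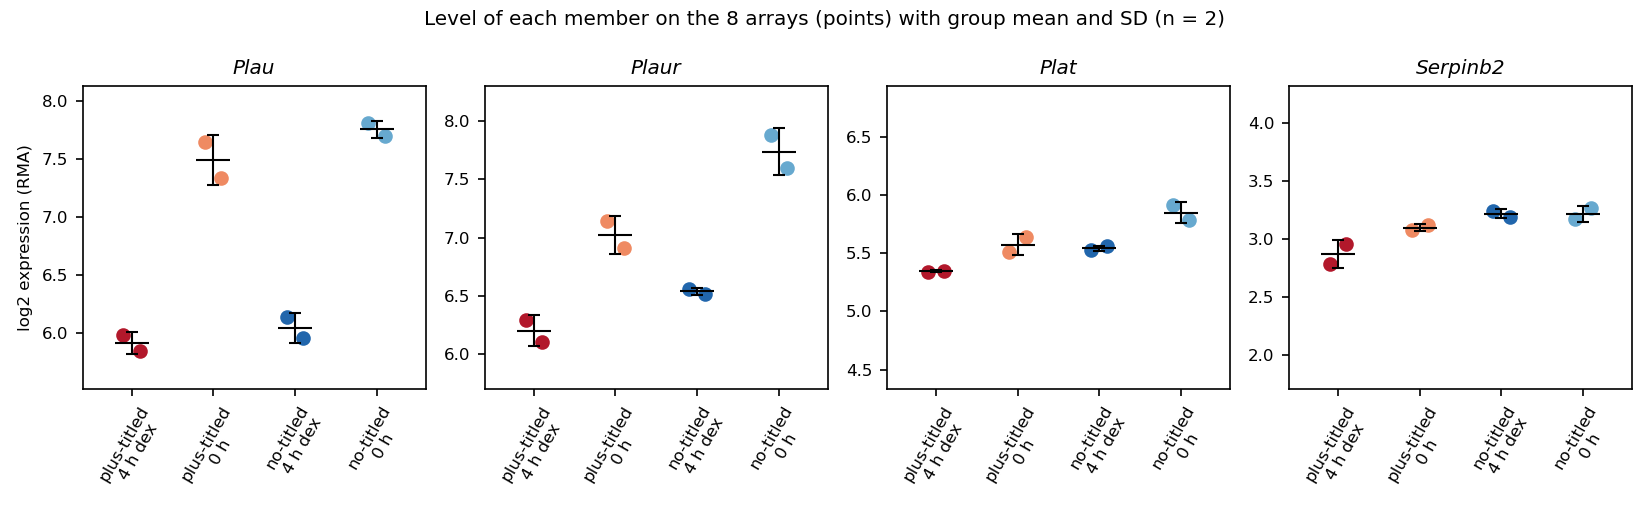
Log2 expression of Plau, Plaur, Plat and Serpinb2 (1 panel each, all spanning the same height on the log2 scale) on the 8 arrays (points), with the mean and SD of each group (bars, n = 2), plus-titled groups left and no-titled groups right. Treated arrays of Plau lie between 5.85 and 6.14, and its untreated arrays between 7.34 and 7.81, while Serpinb2 stays between 2.78 and 3.26.

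Plat, the tissue-type activator gene, showed small differences that did not pass. Its probe set lay near the middle of each array, at percentile 48.3 to 56.6 of all probe sets. In the plus-titled arm its level was 5.34 and 5.35 at 4 h, against 5.51 and 5.64 at 0 h. In the no-titled arm it was 5.52 and 5.56 at 4 h, against 5.91 and 5.79 at 0 h. The treated arrays were below the untreated ones in each arm without overlap, but the changes were -0.23 ± 0.11 in the plus-titled arm (SE; 95% interval -0.47 to 0.01; adjusted p = 0.523) and -0.31 ± 0.11 in the no-titled arm (95% interval -0.54 to -0.07; adjusted p = 0.337). Averaged over the arms, a contrast added after these values were seen, the change was -0.27 ± 0.08 (adjusted p = 0.114).

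Serpinb2 encodes plasminogen activator inhibitor 2, a urokinase inhibitor found mostly inside cells and known from activated macrophages and keratinocytes. Its probe set was dim, at percentile 7.55 to 13.3 of all probe sets on the 8 arrays. In the plus-titled arm its level was 2.78 and 2.95 at 4 h, against 3.08 and 3.12 at 0 h. In the no-titled arm it was 3.24 and 3.19 at 4 h, against 3.17 and 3.26 at 0 h. Treated and untreated arrays overlapped in the no-titled arm and did not in the plus-titled arm. The changes were -0.23 ± 0.11 in the plus-titled arm (SE; adjusted p = 0.534) and -0.00 ± 0.11 in the no-titled arm (adjusted p = 1.00), so neither passed. At such dim signal small folds are compressed, and a change in this gene may not have been detectable.

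Without hormone the arms differed in Plaur. At 0 h it was lower in the plus-titled arm, with a difference of -0.71 ± 0.13 (log2, SE; 1.64-fold lower; 95% interval -1.01 to -0.42; adjusted p = 0.00862), with both plus-titled arrays below both no-titled arrays. That call was lost without replicate 1 of the untreated no-titled group (-0.57, adjusted p = 0.0912) and without replicate 2 of the untreated plus-titled group (-0.60, adjusted p = 0.0558). It was the 1 member called of 4, while 3.18% of all genes were called lower and 6.2% higher in the plus-titled arm at 0 h. That split of calls over all genes moved with the scaling: 1236 were higher and 634 lower as deposited, 1020 and 776 after cyclic loess, and 1360 and 477 after median centring. Plaur was called under both, at -0.77 and -0.69. Plau at -0.26 ± 0.13 (95% interval -0.55 to 0.03; adjusted p = 0.277), Plat at -0.27 ± 0.11 (adjusted p = 0.155) and Serpinb2 at -0.12 ± 0.11 (adjusted p = 0.592) did not pass. All 4 differences had the same sign, which 10693 of the 19938 genes shared.

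At 4 h of dexamethasone 0 of the 4 members were called between the arms, where 4.32% of all genes were lower and 5.29% higher in the plus-titled arm, although 2 members had an unadjusted p under 0.05. Plaur was at -0.34 ± 0.13 (plus-titled minus no-titled, SE; 95% interval -0.64 to -0.04; adjusted p = 0.16). Serpinb2 was at -0.35 ± 0.11 (adjusted p = 0.0795), with both plus-titled arrays below both no-titled arrays. Plau at -0.13 (adjusted p = 0.642) and Plat at -0.20 (adjusted p = 0.329) were closer to 0. Averaged over both times, again a contrast added after the values were seen, Plaur was lower in the plus-titled arm, with a difference of -0.53 ± 0.10 (95% interval -0.74 to -0.32; adjusted p = 0.00299), where 7.74% of all genes were called lower. Plat at -0.24 (adjusted p = 0.0552), Serpinb2 at -0.23 (adjusted p = 0.0631) and Plau at -0.20 (adjusted p = 0.191) did not pass in that contrast.

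Whether the hormone response itself differed between the arms was tested as the plus-titled response minus the no-titled one. No member passed by limma (0 of 4), and over all genes 0.00502% were called, 1 gene. An unadjusted p under 0.05 by limma was found for 0 members and for 1018 of the 19938 genes. For Plau the difference was 0.13 ± 0.19 (SE; 95% interval -0.28 to 0.54; adjusted p = 0.997), and for Plaur it was 0.37 ± 0.19 (95% interval -0.05 to 0.79; adjusted p = 0.988), a smaller fall in the plus-titled arm. Plat stood at 0.08 (95% interval -0.26 to 0.41) and Serpinb2 at -0.23 (95% interval -0.57 to 0.11). These intervals leave room for responses that differ by up to 1.45-fold for Plau and 1.73-fold for Plaur.

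**Figure D2:**
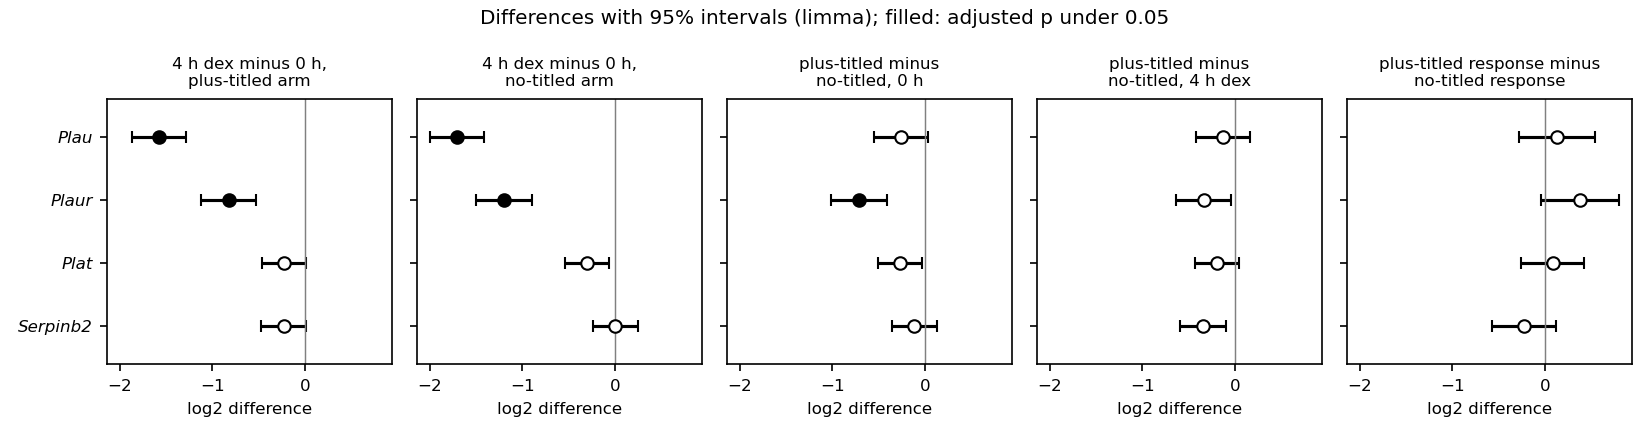
Log2 differences (points) with 95% intervals (bars) for the 4 measured members in the 5 comparisons, from the limma model of all 8 arrays; filled points had an adjusted p under 0.05. The filled points are Plau and Plaur in both hormone responses and Plaur between the arms at 0 h, and every interval of the difference of the responses covers 0.

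The order of the 4 groups was similar in the members that changed. Plau was highest in the no-titled arm at 0 h, followed by the plus-titled arm at 0 h, and the treated groups of the 2 arms overlapped at the bottom. Plaur had the same order with 4 groups that did not overlap: its untreated plus-titled arrays, at 7.14 and 6.91, lay between the treated no-titled arrays, at 6.56 and 6.52, and the untreated no-titled arrays, at 7.88 and 7.60. In Plat the untreated plus-titled arrays and the treated no-titled arrays overlapped in the middle of the order. Over the 8 arrays Plau and Plaur correlated at r = 0.925, Plaur and Plat at 0.928 and Plau and Plat at 0.779 (Pearson, a description; the arrays fall into treated and untreated groups, which sets much of these values).

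Genes whose pattern over the 8 arrays was closest were sought among those whose group means spanned at least 1 log2 unit. For Plau they were Phlda1 (r = 0.99), a pleckstrin homology domain gene that changed by -1.18 in the plus-titled arm and -1.49 in the no-titled arm, the protocadherin gene Pcdh18 (r = 0.957) and Plaur itself. For Plaur they were Tnrc18 (r = 0.992), the ephrin receptor gene Epha2 (r = 0.985) and the kinesin gene Kif21b (r = 0.984). Epha2 had mean levels of 7.74 at 4 h and 8.58 at 0 h in the plus-titled arm, and 8.26 at 4 h and 9.31 at 0 h in the no-titled arm. For Plat, whose own group means lay only between 5.35 and 5.85, they were Arhgef2 (r = 0.975), Lhfpl2 (r = 0.97) and the neuropilin gene Nrp2 (r = 0.967). For Serpinb2, whose own values span less than 0.5 log2 units, they were Rpp38 (r = 0.917), the small nucleolar RNA gene Snora62 (r = 0.899) and Chac1 (r = 0.895).

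The promoter of Plaur is shown because Plaur was the member that differed by hormone and by arm. The sequence is RefSeq's for GRCm38.p6, chr7:24462233-24462532 on the plus strand, 250 bases before to 50 bases after the start site, with a match to the AP-1 motif TGANTCA in capitals.
Plaur: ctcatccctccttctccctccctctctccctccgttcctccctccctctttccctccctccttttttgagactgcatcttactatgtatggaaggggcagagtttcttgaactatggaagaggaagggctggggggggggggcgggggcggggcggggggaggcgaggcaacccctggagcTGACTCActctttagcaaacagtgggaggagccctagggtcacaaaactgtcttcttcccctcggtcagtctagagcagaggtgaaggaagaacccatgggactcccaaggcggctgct
The match, TGACTCA, begins at position -69 from the start site and overlaps no match of the other motifs searched. On both strands the window held 0 matches to the palindromic glucocorticoid response element, 0 to its single arm AGAACA and 7 to the ETS core GGAA. Of 32851 promoter windows of this length, 7.81% held TGANTCA, 0.00913% the palindrome, 19.0% its single arm and 96.0% the ETS core. A promoter window of Serpinb2 is set beside it as that of a member called in none of the 5 comparisons. RefSeq's table gives Serpinb2 a pair of start sites, and the window of the upstream one is printed (GRCm38.p6, chr1:107511173-107511472, plus strand), with its 1 match to TGANTCA in capitals.
Serpinb2: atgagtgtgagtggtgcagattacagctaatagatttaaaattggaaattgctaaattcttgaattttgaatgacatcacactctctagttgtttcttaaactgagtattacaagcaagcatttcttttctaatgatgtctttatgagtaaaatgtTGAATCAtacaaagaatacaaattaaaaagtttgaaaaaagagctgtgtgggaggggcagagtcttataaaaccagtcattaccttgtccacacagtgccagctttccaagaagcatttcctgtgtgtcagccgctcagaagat
That match, TGAATCA, begins at position -94 from this start site, and at -181 in the window of the downstream start site (chr1:107511260-107511559), which overlaps the printed one. The printed window held 0 matches to the palindrome, 0 to its single arm and 3 to the ETS core. The letters describe these windows only. No factor was measured on them here.

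Of 4 AP-1 genes examined, Fosl1 and Fosl2, which encode Fos-related partners of Jun, were lower in the plus-titled arm at 0 h, and Fos and Jun were not called there. Fosl1 stood at 6.61 and 6.43 in the plus-titled arm, against 7.82 and 7.34 in the no-titled arm (-1.06, adjusted p = 0.00274). Fosl2 stood at 7.48 and 7.62 in the plus-titled arm, against 8.41 and 8.21 in the no-titled arm (-0.76, adjusted p = 0.00295). With hormone, Fosl2 changed by -0.02 in the plus-titled arm (adjusted p = 0.981) and fell by 0.91 in the no-titled arm (adjusted p = 0.0019). The difference of these Fosl2 responses did not pass over all genes (adjusted p = 0.271). Fosl1 was also lower in the plus-titled arm at 4 h (-0.76, adjusted p = 0.0129), a call lost without any 1 of 3 of the treated arrays (adjusted p up to 0.0939). Fos went the other way. It stood at 6.15 and 5.996 at 4 h against 5.19 and 5.51 at 0 h in the plus-titled arm, and at 5.38 and 5.33 at 4 h against 4.96 and 5.10 at 0 h in the no-titled arm. It rose with hormone in the plus-titled arm (0.73, adjusted p = 0.0236) and was at 0.32 in the no-titled arm (adjusted p = 0.454). Between the arms Fos was higher in the plus-titled arm at 4 h (0.71, adjusted p = 0.00685) and at 0.31 at 0 h (adjusted p = 0.18). Whether the Fos probe set also reads the A-fos transgene was not tested. Jun stood at 8.09 and 7.86 at 4 h against 8.77 and 8.58 at 0 h in the plus-titled arm, and at 8.17 and 8.11 at 4 h against 8.66 and 8.71 at 0 h in the no-titled arm. It fell with hormone in the plus-titled arm (-0.70, adjusted p = 0.0188) and was at -0.55 in the no-titled arm (adjusted p = 0.0569). Between the arms Jun was at -0.01 at 0 h (adjusted p = 0.973) and -0.16 at 4 h (adjusted p = 0.494). Leaving out 1 array ended the hormone call of Fos in 3 of 8 fits (adjusted p up to 0.163) and that of Jun in 2 of 8 (adjusted p up to 0.201), and the call of Fos at 4 h needed replicate 1 of the plus-titled cells given hormone (adjusted p = 0.053 without it).

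Few other genes of the plasmin system were called with hormone. Of 28 measured, 0 rose and 1 fell in the plus-titled arm, where 0.823% of all genes rose and 0.281% fell. In the no-titled arm 1 rose and 1 fell, where 1.03% of all genes rose and 0.401% fell. The medians were 0.02 in each arm, beside -0.01 and 0.01 over all genes in the plus-titled and no-titled arms. Thbs1, which encodes thrombospondin-1, a matricellular protein that can bind plasmin, fell in both arms. It stood at 10.4 and 9.92 at 4 h against 11.8 and 11.7 at 0 h in the plus-titled arm, and at 9.23 and 9.08 at 4 h against 10.5 and 10.5 at 0 h in the no-titled arm. It ranked next to Plau in the plus-titled arm (-1.56 ± 0.15, SE; adjusted p = 0.000453). F3 encodes tissue factor, which starts clotting. It stood at 6.71 and 6.77 at 4 h against 6.88 and 6.59 at 0 h in the plus-titled arm (0.00 ± 0.13, adjusted p = 0.998). In the no-titled arm it stood at 6.96 and 7.02 at 4 h against 5.78 and 6.02 at 0 h, a rise of 1.09 ± 0.13 (adjusted p = 0.00146). The difference of these responses was -1.08 ± 0.19 and did not pass over all genes (adjusted p = 0.208). Plasminogen itself, Plg, was between 4.27 and 4.64 on the 8 arrays and was called in no comparison.

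Between the arms at 0 h, 4 of these 28 genes were higher and 1 was lower in the plus-titled arm, where 6.2% of all genes were called higher and 3.18% lower. Thbs1 was higher by 1.23 and F3 by 0.83. Lrp1, the endocytic receptor that clears complexes of activators and serpins, was higher by 0.55 (adjusted p = 0.0153). Plgrkt, a plasminogen receptor gene, was higher by 0.68 (adjusted p = 0.0419), a call lost in 8 of 16 alternatives, with the difference at 0.36 without replicate 1 of the untreated no-titled group (adjusted p = 0.28). Timp1, which encodes a metalloproteinase inhibitor, was lower at -1.21 ± 0.15 (adjusted p = 0.00107). At 4 h, 2 were higher, Thbs1 by 1.01 and Lrp1 by 0.52, and 2 were lower, Timp1 at -1.04 and S100a10, the partner of annexin A2 in binding plasminogen, at -0.42 (adjusted p = 0.0493, lost in 8 of 16 alternatives). The call of Lrp1 was lost without replicate 2 of either untreated group at 0 h (adjusted p up to 0.139), and at 4 h without any 1 of the 4 treated arrays (adjusted p up to 0.126). The protease genes Mmp3 and Mmp9, whose products plasmin can activate, were called in no comparison.

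**Figure D3:**
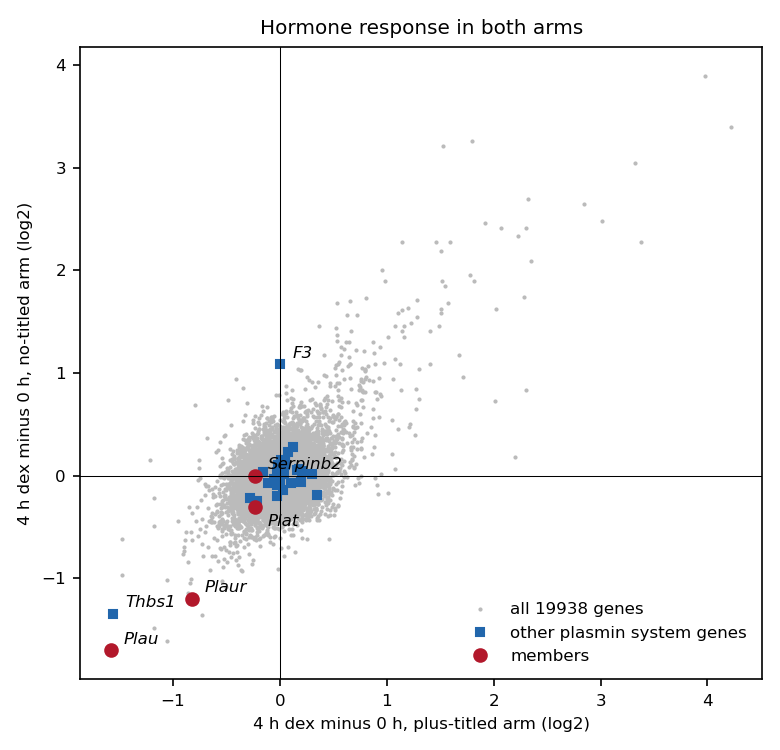
Hormone response (4 h of dexamethasone minus 0 h, log2) of each of the 19938 genes (grey points) in the plus-titled arm (horizontal axis) and the no-titled arm (vertical axis), with the members as red circles and the 28 other plasmin system genes as blue squares. Plau lies at the lower left end of the cloud at -1.57 and -1.70, near Thbs1, and F3 lies above the cloud at 0.00 and 1.09.

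**Figure D4:**
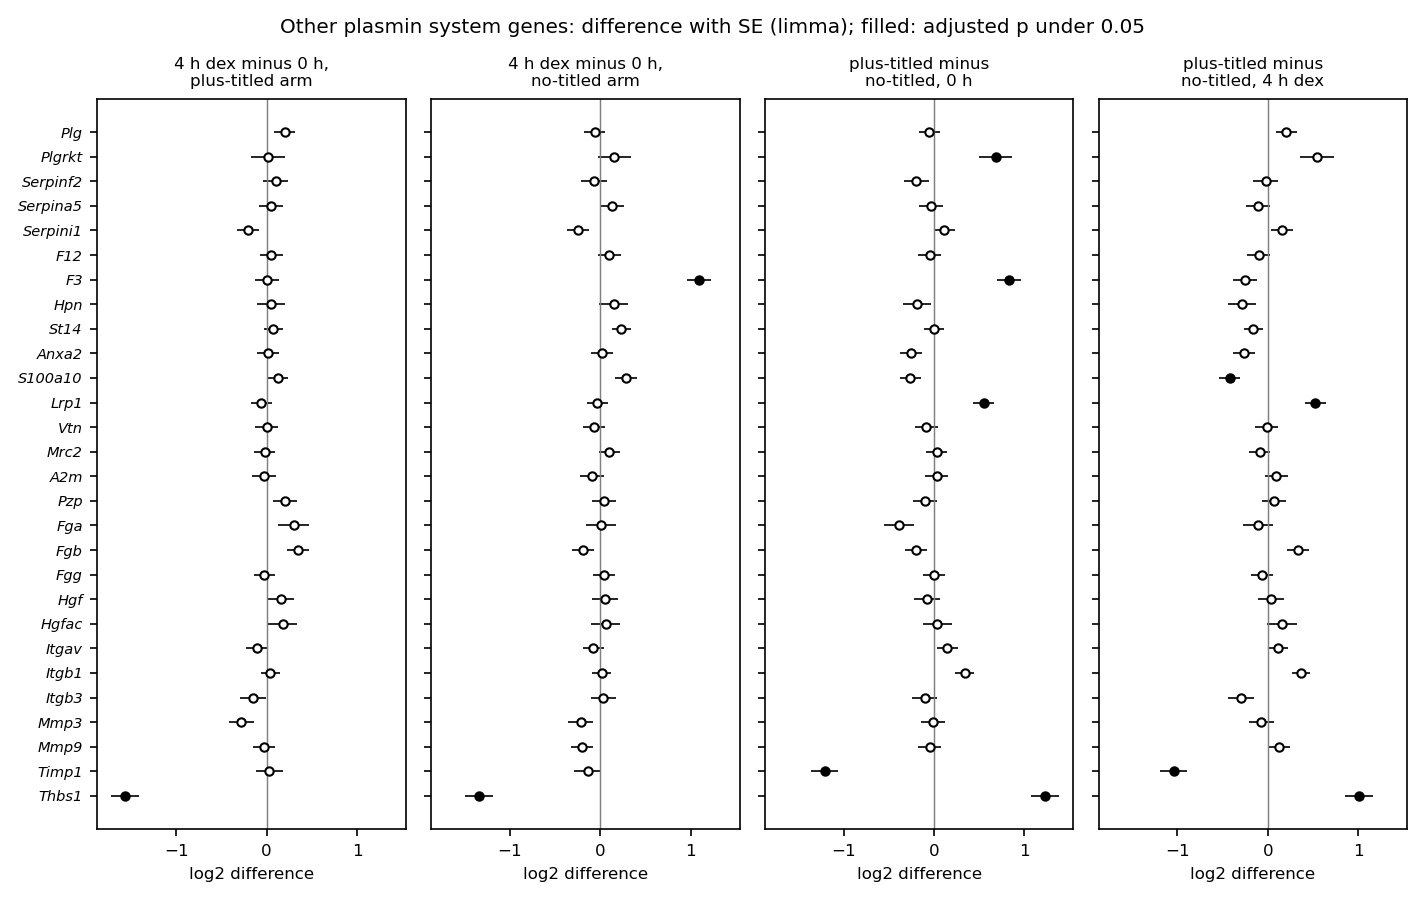
Log2 difference (points) with its SE (bars) for the 28 other plasmin system genes in both hormone responses and both arm comparisons; filled points had an adjusted p under 0.05. Filled points number 1 and 2 in the responses of the plus-titled and no-titled arms, and 5 and 4 between the arms at 0 h and 4 h.

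Markers of cells known to make these genes were examined in the same model. Of 6 leukocyte and macrophage markers and 5 endothelial markers, 0 were called in any of the 5 comparisons by limma, and 0 of them had an unadjusted p under 0.05. Of the leukocyte and macrophage markers 5 lay below the median of every array, with Ptprc between 3.68 and 4.08, and Cd68 lay between 4.79 and 5.54. Of the endothelial markers 4 lay below it on every array, with Pecam1 between 3.93 and 4.57, while Cdh5, the gene of an endothelial cadherin, lay between 6.95 and 7.24, above the median of every array. Of 6 luminal markers 0 were called. Between the arms at 0 h, 2 of them had an unadjusted p under 0.05 by limma, Krt8 at -0.34 and Krt18 at -0.32. At 4 h 1 did, Epcam at -0.31. Over all 19938 genes 4538 had such a p at 0 h and 4457 at 4 h. Krt8 (5.56 to 6.06) and Esr1 (5.84 to 6.30) lay above the median of every array, and the other 4, with Epcam between 4.06 and 4.58, lay below it. Of 6 fibroblast markers 5 lay above it on every array, with Col1a2 between 11.3 and 12.2, and Dcn lay below it. Of 5 basal markers Acta2 lay above it on every array, Krt5, Krt17 and Trp63 lay below it, and Krt14 lay between 4.83 and 6.76. Beside the lower Plaur of the plus-titled arm at 0 h, 1 basal marker was lower (Krt14, -1.39) and 1 higher (Acta2, 1.66) of 5. Of 6 fibroblast markers, 1 was lower (Col1a2, -0.70) and 2 higher (Pdgfra, 0.88, and Pdgfrb, 0.52). Over all genes, 3.18% were called lower and 6.2% higher in this comparison. Acta2 stood at 8.15 and 6.96 on the untreated plus-titled arrays, and without the higher of them, replicate 1, the difference was 1.07 (adjusted p = 0.175). Its call was also lost without either untreated no-titled array (adjusted p up to 0.118), and that of Pdgfrb without any 1 of the 4 untreated arrays (adjusted p up to 0.182). Pdgfrb was also the 1 marker of these lists called with hormone, at -0.75 in the plus-titled arm, which 3 of the 8 single arrays, when left out, ended (adjusted p up to 0.201). Over all genes 0.281% were called lower with hormone in that arm. The part of these markers' changes in the values of Plaur was not tested.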

How the data were processed

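Each of the 8 RNA samples was hybridised to its own oligonucleotide array. The authors deposited a log2 expression value per probe set and sample (28888 probe sets). Affymetrix Expression Console and RMA are named, per the submitters' processing notes, without versions or settings. Quantile normalization within RMA gives all arrays nearly the same distribution, which hides any shift common to most genes.

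The array's annotation gave 1 symbol each to 21789 probe sets, more than 1 to 1621, and left 5478 unnamed in the table used. Symbols were brought up to date through gene numbers (21698 matched in RefSeq's mouse genes). A gene was represented by its brightest probe set on average, giving 19938 genes, and dim genes were kept. Groups follow the titles. Whether replicates came from separate cultures is not stated, so the p-values cover only the spread between these arrays, which may be technical, and the number of arrays limits the precision.

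The model was fitted in R 4.3.3 with limma 3.58.1, 1 mean per group and moderated variances, 2-sided, with Benjamini-Hochberg adjustment over all genes. It had 4 residual degrees of freedom and a prior of 6.64. It was also run on simulated data drawn from its own assumptions, which cannot show whether those hold for these arrays. Members, gene lists, motifs and the rule for named genes (the 3 closest by Pearson's r for each member, and called plasmin system genes) were chosen with earlier results of these data known. Of 32 plasmin system genes listed, 28 were measured. The settings varied were the variance model (trend and robust), the arrays in the fit, a block for replicate number, removal of the dimmest 40% of genes, the scaling (medians or cyclic loess), the choice of probe sets, and each array left out in turn. Promoters are RefSeq's for GRCm38.p6, and the table used held windows for Plaur and Serpinb2 among the measured members.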

Additional observations from a re-analysis of the deposited data

How the results depend on the processing

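Calls of Plau in both hormone responses and of Plaur in the no-titled arm held in all 16 alternatives, with Plau between -1.73 and -1.42 in the plus-titled arm and between -1.79 and -1.61 in the no-titled arm, and Plaur between -1.34 and -1.06. Over the fits without 1 array, 2 members were called in the no-titled response throughout, 1 to 2 in the plus-titled response, 0 to 1 between the arms at 0 h, and 0 in the other comparisons. These are the 2 arrays each given above for Plaur. Such fits leave a group with 1 array, whose spread is assumed to be that of the other groups.

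With the replicate number as a block, 2, 2, 1, 0 and 0 members were called in the plus-titled response, the no-titled response, the arm differences at 0 h and 4 h and the difference of the responses, and no call of a member changed. Deviations of arrays with the same number correlated at -0.019 to 0.133 between groups, so the labels' numbers are not known to pair the samples.

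Values that changed sign were never called: Serpinb2 in the no-titled response was 0.0027 with median centring and -0.0468 to 0.0465 without 1 array, and the difference of the responses of Plau was -0.0235 to 0.281 without 1 array. Of the 28 other plasmin system genes, 2 to 5 were higher and 1 to 2 lower in the plus-titled arm at 0 h over the alternatives (2 and 2 without replicate 2 of the untreated plus-titled group), and 1 to 4 higher and 1 to 2 lower at 4 h, where 1 was higher without any 1 of the 4 treated arrays. Serpinb2 is among the dimmest 40% of genes and has no value without them. Over all genes, trend and robust variance called 370 and 461 in the plus-titled and no-titled responses and leaving out dim genes 357 and 444, against 220 and 285. Without 1 array these were 80 to 187 and 134 to 291, and 589 to 1642 and 654 to 2128 were called between the arms at 0 h and 4 h, against 1870 and 1916. For the difference of the responses, 11, 6 and 2 were called with trend and robust variance, without dim genes and with median centring, and 0 to 2 without 1 array. The cause was not tested.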
